A study of Danio rerio with 10 samples.

Results

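The emilin genes of the zebrafish pectoral fin were examined in WT and *prdm1a-/-* embryos. The deposited gene count table holds 32520 genes, and the 5 whose name starts with emilin are *emilin1a*, *emilin1b*, *emilin2a*, *emilin2b* and *emilin3a*. The family was chosen by the measured difference of *emilin3a* between the genotypes, so the values of *emilin3a* are given as a description, without a test. Its 4 paralogs in the table belong to the family by name alone, and their genotype difference was tested. No gene in the table carries the name *emilin3b*, so that paralog could not be examined. All 5 genes passed the filter on low counts and entered the fit with the 20007 genes that did, but no p-value is given for *emilin3a*. The question was whether the paralogs share the change of *emilin3a*.

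RNA had been sequenced from EGFP-positive cells sorted at 48 hours post fertilization (hpf) from 2 WT and 2 *prdm1a-/-* pools. All 4 pools carried the transgene *Tg(Mmu:Prx1-EGFP)*, in which a mouse *Prx1* enhancer drives EGFP in the pectoral fin, and the *prdm1a-/-* pools were homozygous for the allele m805, which carries a premature stop codon. The same enhancer is also active in the pharyngeal arches and the dorsal head, which were dissected away before sorting. The study allows that residual tissue of both may have stayed in the samples. The embryos came from an intercross of *prdm1a+/-* fish that carried the transgene, and mutants were recognised by their pigment. Where it describes cartilage stains, the study states that its WT measurements included heterozygotes. For the RNA pools it names WT embryos and does not say whether heterozygotes were among them. Each library is a pool of embryos, and replicate numbers 1 and 2 occur in both genotypes. Where 2 values are given for a genotype, the pool numbered 1 comes first, and "mutant" stands for *prdm1a-/-*.

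Emilins are large glycoproteins of the extracellular matrix that lie where elastin meets microfibrils. They share a cysteine-rich EMI domain near the N-terminus and a long coiled coil. In mammals EMILIN1, EMILIN2 and the multimerins end in a C1q-like domain, which EMILIN3 lacks. In mice, EMILIN1 binds the precursor of TGF-beta and limits its processing, and its C-terminal domain is bound by integrins of the itga4 and itga9 type. Transcripts of zebrafish *emilin3a* have been found in arch and notochord cells, among others.

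Library totals ran from 20303621 to 26798799 counts, and a gene at 0 counts could hold up to 3 counts, or 0.115 to 0.147 CPM (counts scaled to library total and TMM factor). The mutated gene *prdm1a* had 1147 and 5222 counts in the WT pools against 2505 and 7847 in the mutant pools. Its transcript is still counted in mutants, so it does not check the labels. Libraries of the same number were more alike than libraries of the same genotype, with 68.5% of the variance on a component that separated the numbers. Genotypes were compared within the replicate number, as a block in the quasi-likelihood test of edgeR, and p-values were adjusted over all genes tested by Benjamini-Hochberg. The block was chosen with earlier results of these data known, where the authors' own comparison was found to hold the replicate number. The fit with the block called 203 genes at an adjusted p under 0.05, or 1.01% of those tested. In the same fit 2490 of the 20007 genes tested had an unadjusted p under 0.05, in either direction. Of all genes tested, 0.62% were called lower in *prdm1a-/-*. With genotype alone the same test called 0 genes and left 376 genes at an unadjusted p under 0.05. The adjusted p was then 1 for each emilin paralog and each tested gene of the lists used here. DESeq2 with genotype alone called 50. A library could be left out only with genotype alone, where edgeR called 0 genes each time and 258 to 385 had an unadjusted p under 0.05.

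*emilin3a* (ENSDARG00000078052) was far lower in the mutant fin cells. It had 4432 and 4036 counts in the WT pools, and 473 and 580 counts in the mutant pools. Both *prdm1a-/-* libraries lay well below both WT libraries, and the libraries of a genotype were close together. The mean level was 186 CPM in WT (SD 9.81, n = 2) and 22.7 CPM in mutants (SD 0.589, n = 2). Within the replicate number, mutant and WT differed by a log2 ratio of -3.06 (95% interval of counting error -3.20 to -2.92) in replicates 1 and -3.01 (-3.13 to -2.88) in replicates 2. The fitted log2 fold change was -3.03 (SE 0.142), which left 0.122 of the WT level. The transcript was thus reduced and not lost, since at least 473 of its counts were still found in each mutant library. Of the 20007 genes tested, 62 had a log2 fold change this low or lower, *emilin3a* included. Genes with few counts are among them, such as *opn8b*, with 20 and 12 counts in the WT pools and 0 in both mutant pools. In these bulk samples, fewer cells that express a gene and less RNA per cell cannot be told apart.

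**Figure D1:**
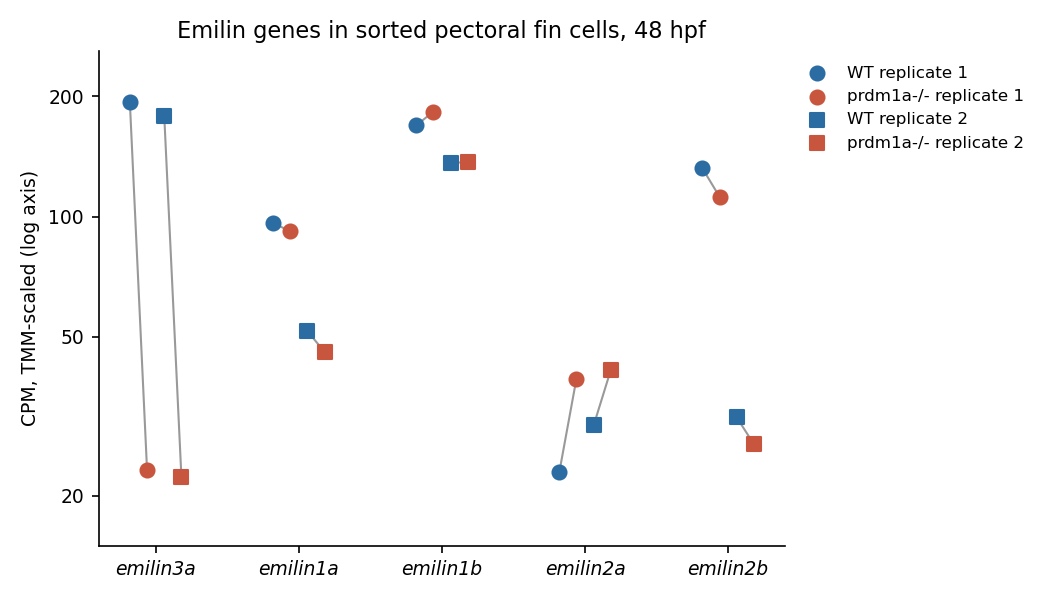
CPM of the 5 emilin genes (log axis) in each of the 4 libraries; circles are replicate 1, squares replicate 2, blue WT, red *prdm1a-/-*, and a line joins libraries of the same number. *emilin3a* drops from 193 and 179 CPM to 23.2 and 22.3 CPM, while the lines of the other genes are short.

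The EMILIN1-type genes differed little between genotypes. *emilin1a* (ENSDARG00000024537) had 96.4 and 51.7 CPM in the WT pools, against 91.8 and 45.8 in the mutant pools. The genotypes overlapped, and both first replicates were higher than both second ones. Its log2 fold change was -0.12 (SE 0.137, 95% interval -0.43 to 0.18, edgeR adjusted p = 0.786 with the block). The log2 ratio was -0.07 in replicates 1 and -0.18 in replicates 2.

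*emilin1b* (ENSDARG00000026166) had 169 and 136 CPM in the WT pools, against 183 and 137 in the mutant pools. Here too the genotypes overlapped, and the pair numbered 2 was almost level, with a log2 ratio of 0.01 against 0.11 in the pair numbered 1. The log2 fold change was 0.06 (SE 0.131, 95% interval -0.23 to 0.35, adjusted p = 0.907 from edgeR). For both EMILIN1-type genes, a fall as large as that of *emilin3a* lies outside the interval.

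The fitted log2 fold changes of the EMILIN2-type genes had opposite signs, but neither gene was called. *emilin2a* (ENSDARG00000061196), the least counted member in WT, had 526 and 674 counts in the WT pools, against 803 and 1073 in the mutant pools. Both *prdm1a-/-* libraries, at 39.3 and 41.3 CPM, lay above both WT libraries, at 22.9 and 30.0 CPM. Such a separation of the genotypes, in either direction, was seen in 26.2% of all genes tested. The log2 ratio was 0.78 in replicates 1 and 0.46 in replicates 2, and the log2 fold change was 0.62 (SE 0.166, 95% interval 0.25 to 0.99). The unadjusted p was 0.0039 and the adjusted p 0.137 from edgeR, so that *emilin2a* was not called. Under the 7 fits with the block its adjusted p ran from 0.0549, with no filter on low counts, to 0.407, with DESeq2.

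*emilin2b* (ENSDARG00000102178) had 132 and 31.4 CPM in the WT pools, against 112 and 26.9 in the mutant pools. Each *prdm1a-/-* library was slightly below its WT partner, but the replicate numbers were much farther apart than the genotypes. The log2 ratio was -0.24 in replicates 1 and -0.22 in replicates 2. The fit gave a log2 fold change of -0.23 (SE 0.136, 95% interval -0.53 to 0.07, adjusted p = 0.543 from edgeR with the block).

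In all, 0 of the 4 paralogs were called by edgeR, DESeq2 or limma-voom with the block. An unadjusted p under 0.05 in edgeR was seen for 1 of 4, *emilin2a*, beside 2490 of all 20007 genes tested. With 1.01% of all genes called, a count of 0 among 4 genes is close to the background. The lowest bound of the 95% intervals among the paralogs was -0.53. The median log2 fold change of the 4 paralogs was -0.031, beside 0.0068 for all genes tested.

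**Figure D2:**
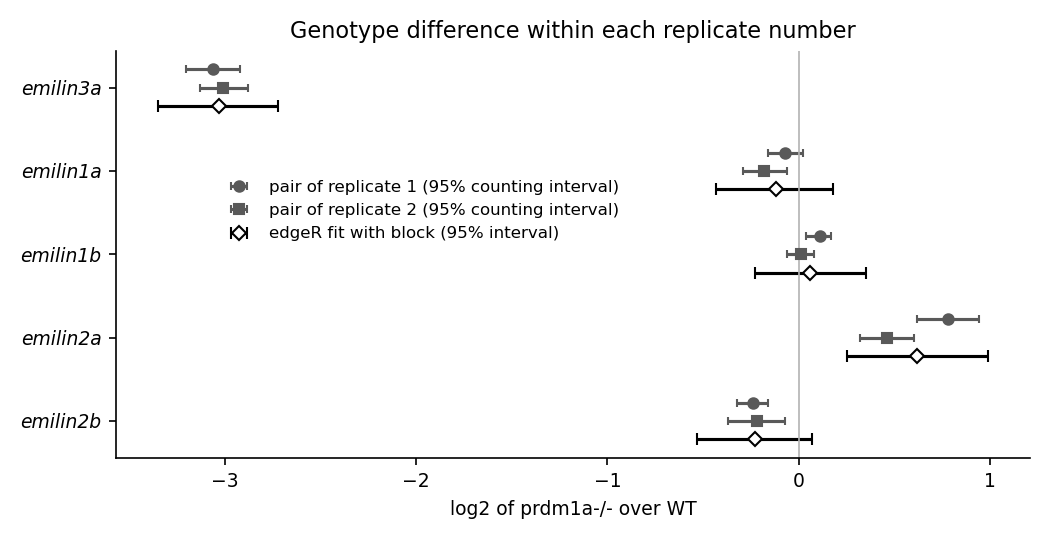
Log2 of *prdm1a-/-* over WT for each emilin gene; grey circles and squares are the pairs numbered 1 and 2 with 95% counting intervals, and open diamonds the edgeR fit with the block and its 95% interval. *emilin3a* lies near -3.03 and the 4 paralogs between -0.23 and 0.62.

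Ratios taken inside a library do not depend on how libraries are scaled. The log2 ratio of *emilin3a* to *emilin1b* counts was 0.19 and 0.40 in the WT pools and -2.98 and -2.61 in the mutant pools. *emilin3a* thus had more counts than *emilin1b* in both WT libraries and fewer in both mutant libraries. Against *emilin1a*, the same log2 ratio moved by -2.99 in replicates 1 and -2.83 in replicates 2. Against *emilin2b* it moved by -2.82 and -2.78, and against *emilin2a* by -3.84 and -3.47. These differences are a description, because *emilin3a* was selected for its change.

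The make-up of the family's counts shifted accordingly. *emilin3a* held 31.5% (95% exact binomial interval 30.7% to 32.2%) of all emilin counts in WT replicate 1 and 41.9% (40.9% to 42.9%) in WT replicate 2. In *prdm1a-/-* replicates 1 and 2 it held 5.16% (4.72% to 5.63%) and 8.18% (7.55% to 8.84%). *emilin1b* took the largest share in the mutant libraries, 3731 of 9168 and 3549 of 7091 emilin counts (40.7% in replicate 1), against 27.6% and 31.7% in WT. Shares of this kind depend on transcript length and are compared only between libraries. The 4 paralogs summed to 421 and 249 CPM in the WT pools, against 426 and 251 in the mutant pools, which differ by a log2 ratio of 0.02 for number 1 and 0.01 for number 2. With *emilin3a* included, the family sum went from 614 to 449 CPM in replicates 1 and from 428 to 273 CPM in replicates 2.

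**Figure D3:**
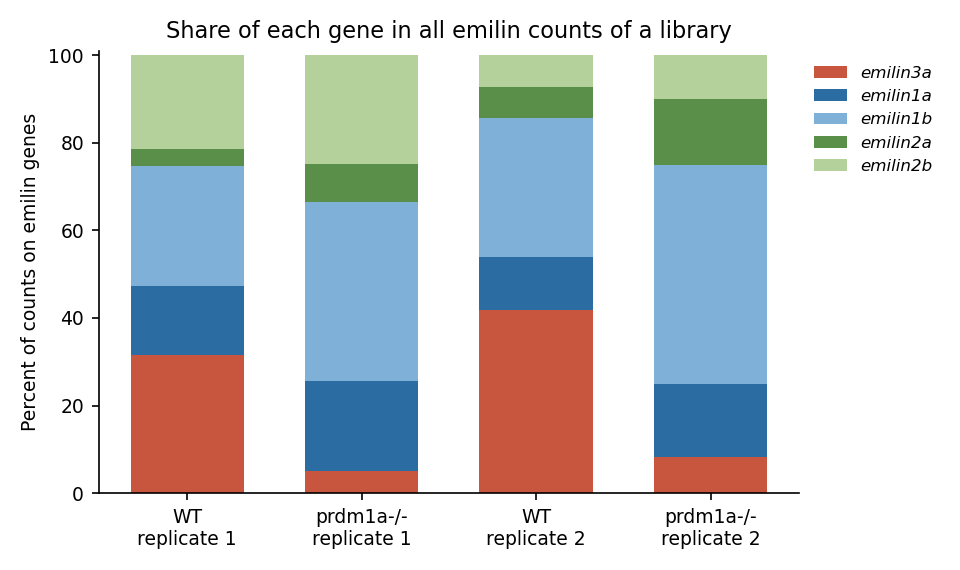
Percent of all counts on emilin genes that each member holds, in stacked bars for the 4 libraries. *emilin3a* (red) goes from 31.5% to 5.16% in replicates 1 and from 41.9% to 8.18% in replicates 2.

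Members also differed in how they followed the replicate number. From replicate 1 to replicate 2, *emilin2b* was lower by a log2 ratio of -2.07 in WT and -2.05 in *prdm1a-/-*, and *emilin1a* by -0.90 in WT, with a like step in mutants (91.8 to 45.8 CPM). *emilin1b* differed by -0.32 and -0.42, and *emilin2a* by 0.39 and 0.07. *emilin3a* was nearly level, at -0.11 and -0.05.

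The summed markers of some other tissues followed the replicate number too. The 8 notochord markers summed to 3550 and 49.6 CPM in the WT pools, against 2500 and 49.4 in the mutant pools. *noto*, an early notochord transcription factor, had 0 counts in both first replicates and was not tested. Of the other 7, 0 were called by edgeR, DESeq2 or limma-voom with the block. In edgeR 2 had an unadjusted p under 0.05, both lower, beside 2490 of all 20007 genes in either direction. The most abundant notochord markers are genes of the notochord sheath, *cmn* (log2 fold change -0.18, adjusted p = 0.785 from edgeR) and *epyc* (-0.36, adjusted p = 0.335). From replicate 1 to replicate 2 the notochord sum differed by a log2 ratio of -6.16 in WT and -5.66 in mutants. What part notochord cells had in the *emilin3a* difference was not tested.

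The 11 cartilage markers summed to 31700 and 2490 CPM in the WT pools, against 24500 and 1500 in the mutant pools. Much of the sum in replicates 1 was *col2a1a*, with 21500 CPM in WT and 16300 CPM in mutants. Not every marker fell from replicate 1 to replicate 2. *sox9a* had 134 and 274 CPM in the WT pools and 134 and 197 in the mutant pools. *hapln1a* had 746 and 975 CPM in the WT pools and 780 and 779 in the mutant pools. By edgeR 0 of the 11 were called. However, 8 had an unadjusted p under 0.05, all of them lower, beside 2490 of all 20007 genes in either direction. DESeq2 with the block called 3 (*col2a1a*, *acanb*, *cnmd*) and limma-voom with the block 4 (*col2a1a*, *col11a2*, *acana*, *acanb*). Over all 20007 genes DESeq2 called 243 and limma-voom 434. The collagens *col2a1a* (log2 fold change -0.83, adjusted p = 0.110 from edgeR) and *col11a2* (-0.53, adjusted p = 0.157) were the most abundant. DESeq2 with the block put *col2a1a* at an adjusted p of 0.0124. The 7 skeletal muscle markers also followed the number, with 7700 and 1110 CPM in the WT pools and 6590 and 2110 CPM in the mutant pools. EdgeR called 0 of them, as did DESeq2 and limma-voom with the block. In edgeR 3 had an unadjusted p under 0.05, all of them higher, beside the same 2490 of 20007 genes. The part of these tissues in the levels of *emilin2b* and *emilin1a* was not tested.

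**Figure D4:**
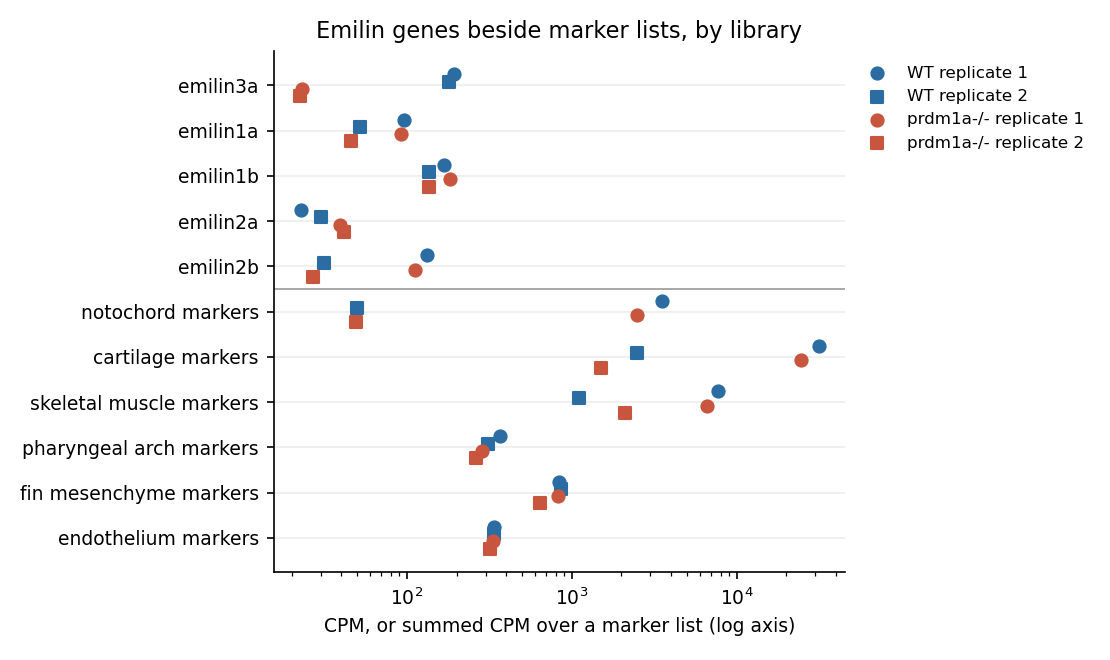
CPM of each emilin gene (top) and summed CPM of 6 marker lists (bottom) in the 4 libraries, on a log axis; circles are replicate 1, squares replicate 2, blue WT, red *prdm1a-/-*. Notochord, cartilage and muscle sums separate by replicate number, *emilin3a* by genotype.

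The 10 pharyngeal arch markers, from another known site of *emilin3a*, summed to 366 and 309 CPM in the WT pools, against 285 and 264 in the mutant pools. The mutant sum was lower by a log2 ratio of -0.36 within number 1 and of -0.22 within number 2. Of the 10, 2 were called lower, 0 higher and 8 not, with a median log2 fold change of -0.32. Among all genes tested, 0.62% were called lower. *gsc*, a homeobox gene of the arches, fell from 869 and 759 counts in the WT pools to 244 and 367 in the mutant pools (log2 fold change -1.46, SE 0.188, adjusted p = 0.00481 from edgeR). *barx1*, a homeobox gene of arch mesenchyme, fell from 40.4 to 22.8 CPM (-0.83, SE 0.161, adjusted p = 0.0464), a call that was lost with DESeq2 (adjusted p = 0.0721), with RLE factors (0.0803) and without a TMM factor (0.145). The most abundant, *jag1b*, a Notch ligand, and *ednraa*, an endothelin receptor, had log2 fold changes of -0.10 and -0.08 (adjusted p = 0.843 and 0.892).

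The markers of fin mesenchyme were present in every library and summed to 836 and 862 CPM in the WT pools, against 830 and 640 in the mutant pools. Of 8 tested, 1 was called lower, beside 0.62% of all genes tested. *hand2*, a transcription factor of the fin bud and the arches, fell from 111 to 52.7 CPM (log2 fold change -1.12, adjusted p = 0.00525 from edgeR), with an adjusted p of 0.0659 where no TMM factor was used. The most abundant, the homeobox genes *prrx1a* and *prrx1b*, were at 0.02 (adjusted p = 0.973) and -0.47 (adjusted p = 0.314), and without a TMM factor *prrx1a* turned to -0.01. The log2 fold change of *emilin3a*, -3.03, was lower than that of every arch or fin mesenchyme marker listed, of which *gsc* was the lowest. As *emilin3a* was chosen for its change, this order is a description only. What part arch or fin cells had in the *emilin3a* difference was not tested.

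Other tissues that such a sort could hold were also listed. EdgeR, DESeq2 and limma-voom with the block each called 0 of 11 endothelium markers, whose sum ran from 317 to 338 CPM over the 4 libraries. In edgeR 1 of them had an unadjusted p under 0.05, beside 2490 of all 20007 genes tested. Of 8 mural and smooth muscle markers edgeR called 0, DESeq2 0 and limma-voom 1 (*cspg4*). Their sum ran from 568 to 758 CPM. In edgeR 2 of the 8 had an unadjusted p under 0.05, both lower, beside the same 2490 of 20007 genes. Of 7 epidermis markers edgeR called 0. An unadjusted p under 0.05 was seen for 3, all higher, beside 2490 of all 20007 genes in either direction. DESeq2 and limma-voom called 2 each (*cdh1* and *krt91*, both higher), and the epidermis sum ran from 9230 to 13600 CPM. Of 7 neural crest and pigment cell markers 2 were called lower, beside 0.62% of all genes tested. These were the crest transcription factor *sox10* (log2 fold change -0.96, adjusted p = 0.0273 from edgeR) and the melanin gene *tyrp1b* (-2.55, adjusted p = 0.00462). Both calls were lost without a TMM factor (adjusted p = 0.1 and 0.0557), and that of *sox10* also with RLE factors (0.0561). DESeq2 with the block called these and *dct*, a second melanin gene (-2.42, adjusted p = 0.0287), for which edgeR gave -2.25 (adjusted p = 0.142). Their sum went from 205 to 130 CPM in replicates 1 and from 102 to 61.4 CPM in replicates 2. Mutants had been recognised by pigment, so the last list is no independent result.

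Genes related to the emilins by structure or partnership were then taken from fixed lists. Of 12 multimerins and other genes with an EMI domain, 10 were in the table and all were tested. EdgeR, DESeq2 and limma-voom with the block called 0 of them. In edgeR 3 had an unadjusted p under 0.05, 1 higher and 2 lower, beside 2490 of all 20007 genes in either direction. The log2 fold changes of the 10 ran from -1.56 to 0.72, with a median of -0.20. *mmrn2a* and *mmrn2b*, the multimerins of the list, were named after their values had been seen. For *mmrn2a* edgeR gave -0.14 on the log2 scale (SE 0.171, adjusted p = 0.817), and for *mmrn2b* -0.65 (SE 0.240, adjusted p = 0.304). The most abundant were *postnb*, a periostin gene, at 1280 CPM in WT and 1410 CPM in *prdm1a-/-* (log2 fold change 0.16, adjusted p = 0.721), and *tgfbi* at 848 and 718 CPM (-0.39, adjusted p = 0.359).

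Of 30 genes of elastic fibres and microfibrils, 22 were in the table and tested. By edgeR 1 was called lower and 21 were not called, beside 0.62% called lower among all genes tested. An unadjusted p under 0.05 was seen for 5, 2 higher and 3 lower, beside 2490 of all 20007 genes in either direction. Limma-voom with the block also called *loxl4*, a second lysyl oxidase, lower (-0.94, adjusted p = 0.0402). The median log2 fold change of the list was -0.02. The gene called by edgeR was *loxl1*, a lysyl oxidase that cross-links elastin. It had 5611 and 1568 counts in the WT pools, against 2965 and 794 in the mutant pools. Each *prdm1a-/-* library was below its WT partner, but the genotypes overlapped because of the distance between replicate numbers. Its log2 fold change was -0.97 (SE 0.149, adjusted p = 0.013 from edgeR with the block), with an adjusted p of 0.104 where no TMM factor was used. The most abundant genes of the list were the proteoglycan gene *vcanb* (0.48, adjusted p = 0.360) and the fibrillin gene *fbn2b* (0.09, adjusted p = 0.861).

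Of 13 genes for TGF-beta ligands, their receptors and furin proteases, edgeR called 0. An unadjusted p under 0.05 was seen for 3, all higher in *prdm1a-/-*, beside 2490 of all 20007 genes in either direction. Of the 13, DESeq2 with the block called 1 and limma-voom 0. The gene called by DESeq2 was *tgfbr2a*, a type II receptor, which had 89 and 759 counts in the WT pools, against 379 and 1319 in the mutant pools. Its log2 fold change was 1.34 (SE 0.322, adjusted p = 0.0954) with edgeR and 1.39 (adjusted p = 0.0139) with DESeq2, and it was named after its values had been seen. The most abundant genes of the list were the ligand genes *tgfb1a* (log2 fold change 0.34, adjusted p = 0.322 from edgeR) and *tgfb3* (-0.08, adjusted p = 0.860).

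Among 6 integrin subunit genes, 1 was called lower and 5 were not, beside 0.62% called lower among all genes tested. In edgeR 3 of the 6 had an unadjusted p under 0.05, 1 higher and 2 lower, beside 2490 of all 20007 genes. *itga9* had 1498 and 2464 counts in the WT pools, against 849 and 1712 in the mutant pools, and was below its WT partner in each pair. Its log2 fold change was -0.69 (SE 0.137, adjusted p = 0.0492 from edgeR), just under the threshold, and the call was lost with DESeq2 and the block (adjusted p = 0.0688), with RLE factors (0.0898) and without a TMM factor (0.148). The most abundant subunits *itgb1a* and *itgb1b*, which pair with it, had log2 fold changes of -0.36 (adjusted p = 0.308) and 0.11 (adjusted p = 0.811).

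**Figure D5:**
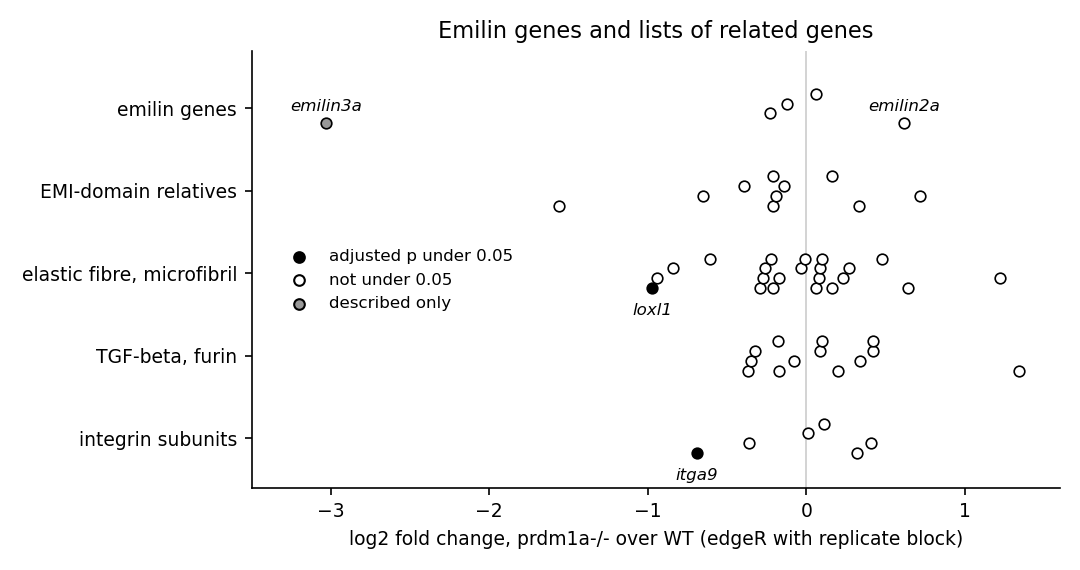
Log2 fold change of *prdm1a-/-* over WT (edgeR with the block) for the 5 emilin genes and 4 lists of related genes, 1 point per gene; black points have an adjusted p under 0.05, and *emilin3a* (grey) is shown as a description only, since it was chosen by this difference. *loxl1* at -0.97 and *itga9* at -0.69 are the black points.

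The 5 genes whose pattern over the 4 libraries was most like that of *emilin3a* were found by the root-mean-square difference of centred log2 CPM. They were *mia*, *pimr80*, *bscl2l*, *opn8b* and *CU651662.1*, with differences of 0.143 to 0.252. *bscl2l* had 232 and 183 counts in the WT pools, against 22 and 37 in the mutant pools. *mia*, which is known from cartilage, had 14 and 11 counts in WT and 0 in both *prdm1a-/-* libraries. *pimr80* had 14 and 16 counts, *opn8b* 20 and 12 counts and *CU651662.1* 21 and 27 counts in the WT pools, against 0, 0 and 2 counts in each *prdm1a-/-* library. At such counts the likeness depends on the 2 counts added before taking logarithms, and *bscl2l* alone among the 5 had over 100 counts in a library.

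The genes nearest to *emilin3a* in RefSeq's GRCz12tu gene order were set beside it as well. Only protein-coding genes whose symbol is in the count table were taken, so other genes may lie between them. On one side, *samd10a* had 142 and 150 counts in the WT pools, against 79 and 87 in the mutant pools. Both mutant libraries lay below both WT libraries, a separation that 26.2% of all genes tested showed in either direction. The log2 fold change of -0.84 was not called (SE 0.331, adjusted p = 0.339 from edgeR). *uckl1a*, the next such gene, was at -0.80 (adjusted p = 0.791). On the other side, *sypa*, a synaptophysin gene, was at -0.40 (adjusted p = 0.748), and *cacna1fb*, a calcium channel gene, at 0.33 (adjusted p = 0.923).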

How the data were processed

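Per the labels and the study's methods, the authors aligned trimmed reads to danRer11 (STAR 2.7.10b) and obtained gene counts from featureCounts. The deposited values used here are these whole-number counts. Strand setting and gene models: not given in the sources used here, so antisense overlap could not be checked. The table's other columns hold the authors' own DESeq2 comparison and log2 values, which were not used. The 6 CUT&RUN samples were not analysed here.

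Genes passed edgeR's filterByExpr (minimum count 10, minimum total 15). They were scaled by TMM (factors 0.969 to 1.02) and tested with edgeR 4.0.16 (R 4.3.3) with the replicate number as a block. CPM uses library totals and TMM factors. Alternatives were genotype alone, DESeq2 1.42.0, limma-voom (limma 3.58.1), RLE factors, library totals alone, no filter, a minimum of 10 counts in every library, and leaving out each library. Intervals on ratios and shares cover counting error only.

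The members and lists were chosen with earlier results of these data known. Labels and methods call the numbered pools biological replicates, but neither says whether pools of the same number share a batch. Deviations of same-numbered libraries from their genotype mean correlated across genes (r = 0.703, genes not being independent replicates), and the common dispersion was 0.0446 with the block and 0.255 without. P-values with the block measure only the spread between pools that is left once the replicate number is taken out.

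The genes named are every emilin, the called genes of each list, the 2 most abundant of the lists described singly, the 5 nearest in pattern, and the genes beside *emilin3a*; list genes called by another tool alone were named after their values had been seen. Of the listed genes, 10 were not matched and were not used. RefSeq's GRCz12tu table, used for gene order, gene type and synonyms, also names *emilin3b*. No gene of the count table carries that name, so whether it shares the change of *emilin3a* is not known here. The scripts were tested on simulated data.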

Additional observations from a re-analysis of the deposited data

How the results depend on the processing

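Among the settings with the replicate block, the 5 emilin genes kept their direction in all 30 alternative values, and 0 of the 4 paralogs were called in any setting. *emilin3a* ran from -3.07 to -3.03 with the block and was -3.03 without it. The number of genes called moved from 203 with the block to 0 with no replicate block and to 50 with DESeq2 and no replicate block. With the block it was 434 in limma-voom, 128 with RLE factors, 55 with library totals alone, 636 with no filter on low counts, 243 in DESeq2 and 300 with a minimum of 10 counts. The cause was not tested, except that the filter settings change how many genes are tested. These were 26140 with no filter and 17404 with a minimum of 10 counts, against 20007. Leaving out 1 library was possible only with genotype alone, where edgeR called 0 genes each time and the replicate numbers are unequal between genotypes, so their own difference enters. The log2 fold change then ran from -3.09 to -2.98 for *emilin3a* and from 0.43 to 0.81 for *emilin2a*. It changed sign for *emilin1a* (-0.70 to 0.41), *emilin1b* (-0.16 to 0.26) and *emilin2b* (-1.60 to 1.15).

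Of the other genes given with a log2 fold change, those that changed sign were *prdm1a* (-0.20 to 2.09), *postnb* (-0.28 to 0.64), *tgfbi* (-1.67 to 0.77), *mmrn2a* (-0.37 to 0.08), *loxl1* (-2.36 to 0.34), *vcanb* (-0.20 to 1.21), *fbn2b* (-0.10 to 0.28), *tgfb1a* (-0.32 to 1.01), *tgfb3* (-0.23 to 0.05), *itgb1b* (-0.34 to 0.61), *cmn* (-6.01 to 5.72), *epyc* (-5.51 to 4.79), *jag1b* (-0.20 to 0), *ednraa* (-0.38 to 0.21), *col2a1a* (-5.31 to 3.63), *col11a2* (-4.86 to 3.78), *prrx1a* (-0.26 to 0.30), *prrx1b* (-1.12 to 0.13), *cnmd* (-4.48 to 3.01), *cdh1* (-0.07 to 1.28), *tgfbr2a* (-0.02 to 3.16), *sypa* (-1.14 to 0.29) and *uckl1a* (-1.66 to 0.09). With the block and library totals alone, *prrx1a* was -0.01. With 2 libraries in each genotype the block leaves 1 residual degree of freedom, and the errors rest on a spread shared across genes.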
